A study of Mus musculus with 22 samples.

Results

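The 10 genes of cytokine signalling through STAT factors described here were measured across 4 populations of mouse bone marrow stem and progenitor cells with and without Arid1a. They are the cytokine gene Osm, the transcription factor genes Stat3, Stat5a and Stat5b, the inhibitor genes Socs1, Socs2, Socs3 and Cish, and the kinase genes Pim1 and Pim2, 10 of the 47311 genes to which the measured transcripts belong. Osm was chosen by its low level in KO MEP cells of these same libraries, and the other members were chosen as genes of the same pathway once results of these data were known. Every value that sets Osm against MEP cells is therefore given as a description, without a test.

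RNA was sequenced in 22 libraries. The KO mice were Arid1a f/f;Mx1-Cre+ and the WT mice were Arid1a f/f;Mx1-Cre-, so both carried the floxed allele, in which loxP sites flank exon 9 of Arid1a, on a background crossed back to C57BL/6. Both were given poly(I:C), in 5 doses at an age of 8 to 14 weeks, and cells were sorted 4 weeks later. The Mx1 promoter that drives Cre answers to interferon, which poly(I:C) induces and which itself signals through STAT factors, so the controls had the same stimulus but not the recombinase. Common myeloid (CMP), granulocyte-macrophage (GMP) and megakaryocyte-erythroid progenitors (MEP) came from 3 WT mice (300, 305 and 309) and 3 KO mice (301, 304 and 308), each of which gave all 3 populations. All were Lin-Kit+Sca1- cells. CMP and GMP were CD34+ with low or high Fc gamma receptor, and MEP were negative for both. The paper reports less CD34 on the surface of KO CMP and GMP, and a higher share of MEP in KO marrow. Long-term hematopoietic stem cells (LT-HSC), sorted as CD34-Flt3- LSK cells, came from 2 other WT mice (S245 and S269) and 2 other KO mice (S244 and S270), and the SMART-Seq v4 kit for low RNA input was used for their cDNA. Levels in LT-HSC and in the precursors are therefore set side by side and were not tested against each other.

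Many blood cytokines act by bringing together receptor chains that carry JAK kinases, which phosphorylate STAT proteins, and the STAT proteins then enter the nucleus and switch on target genes. Oncostatin M, the product of Osm, belongs to the interleukin-6 family and signals through gp130 (Il6st), mainly to STAT3, while erythropoietin and interleukin-3 act mainly through STAT5. The SOCS proteins and CIS, the product of Cish, are induced by STATs and shut the signal off, the PIM kinases are STAT-induced kinases that favour survival and growth, and Osm, Cish, Socs2 and Pim1 are all known targets of STAT5.

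The libraries held 40804031 to 65930737 estimated counts on genes. The mean of Arid1a itself went from 80.7 ± 3.30 to 74.4 ± 5.27 TPM (a level per transcript length and library total) in CMP (mean ± SD, n = 3), from 65.5 ± 11.2 to 44.8 ± 1.83 TPM in GMP (n = 3), from 52.7 ± 1.09 to 48.2 ± 3.37 TPM in MEP (n = 3) and from 26.8 ± 4.37 to 10.8 ± 0.171 TPM in LT-HSC (n = 2). The edgeR FDR was 0.0284 in CMP, 0.0246 in GMP, 0.0836 in MEP and 0.421 in LT-HSC. The loss of 1 exon need not lower the count of the whole transcript, so this is a weak check of the labels. Mice 304 and 305 stood apart from the other 4 precursor mice. Ddx3y, a gene of the Y chromosome, lay at 0.40 TPM or less in both, against 23.8 to 37.7 TPM in the other 4 mice, and Xist, which marks an inactive X chromosome, reached 155 to 203 TPM in mouse 305 and at most 0.24 TPM in the others. In LT-HSC 27257 genes reached 10 counts in the WT library of mouse S245, and 18557 to 22465 did in the other 3. Sorted LT-HSC libraries also held transcripts of genes that mark other cells. The summed level of 6 erythroid markers (Klf1, Gata1, Epor, Car1, Tfrc, Hba-a1) was 2091 to 3158 TPM in WT and 1666 to 1992 TPM in KO. That of 4 eosinophil markers (Epx, Prg2, Ear1, Il5ra) was 43.8 to 230 TPM in WT and 241 to 3496 TPM in KO. Whether these transcripts came from other cells was not tested. The summed level of 4 genes of the sort markers (Kit, Cd34, Fcgr3, Ly6a) differed between genotypes in GMP and LT-HSC. In GMP it was 652 to 702 TPM in WT and 509 to 579 TPM in KO, with 2 called lower. In LT-HSC it was 819 to 1158 TPM in WT and 584 to 746 TPM in KO, with none called. It overlapped in CMP and MEP, with 1 called lower in each. Whether the gates took in the same cells in both genotypes was not tested.

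The first question was which of the 10 genes differed between KO and WT in each population. A gene was called at a false discovery rate (FDR) under 0.1, where FDR stands for the Benjamini-Hochberg adjusted p of edgeR's quasi-likelihood test over all genes tested in that comparison. In CMP, 3 of the 10 genes (Socs2, Cish and Pim1) were called higher in KO, where 10.6% of all genes tested were, and 1 (Osm) was called lower, where 12.8% of all genes were. In GMP, 2 of the 10 (Stat3 and Pim1) were called higher, against 17.5% of all genes, and 1 (Osm) lower, against 16.3%. In MEP, Socs3 did not pass the filter on low counts, and of the 8 tested genes other than Osm 4 (Stat3, Socs2, Cish and Pim1) were called higher, against 14% of all genes, and 2 (Stat5a and Stat5b) lower, against 15.4%. In LT-HSC none of the 10 was called by edgeR in either direction, and 0.0264% of all genes were called higher and 0.0528% lower. The unadjusted p was under 0.05 for 3 of the 10 (Osm, Socs2 and Pim2) and for 1180 of the 22733 genes tested, and DESeq2 called the same 3 genes among 204 in all. The median log2 fold change of the 10 genes was 0.35 in CMP and 0.20 in GMP, beside -0.0027 and -0.0056 over all genes tested, and 0.18 in LT-HSC, beside -0.16 over all genes.

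**Figure D1:**
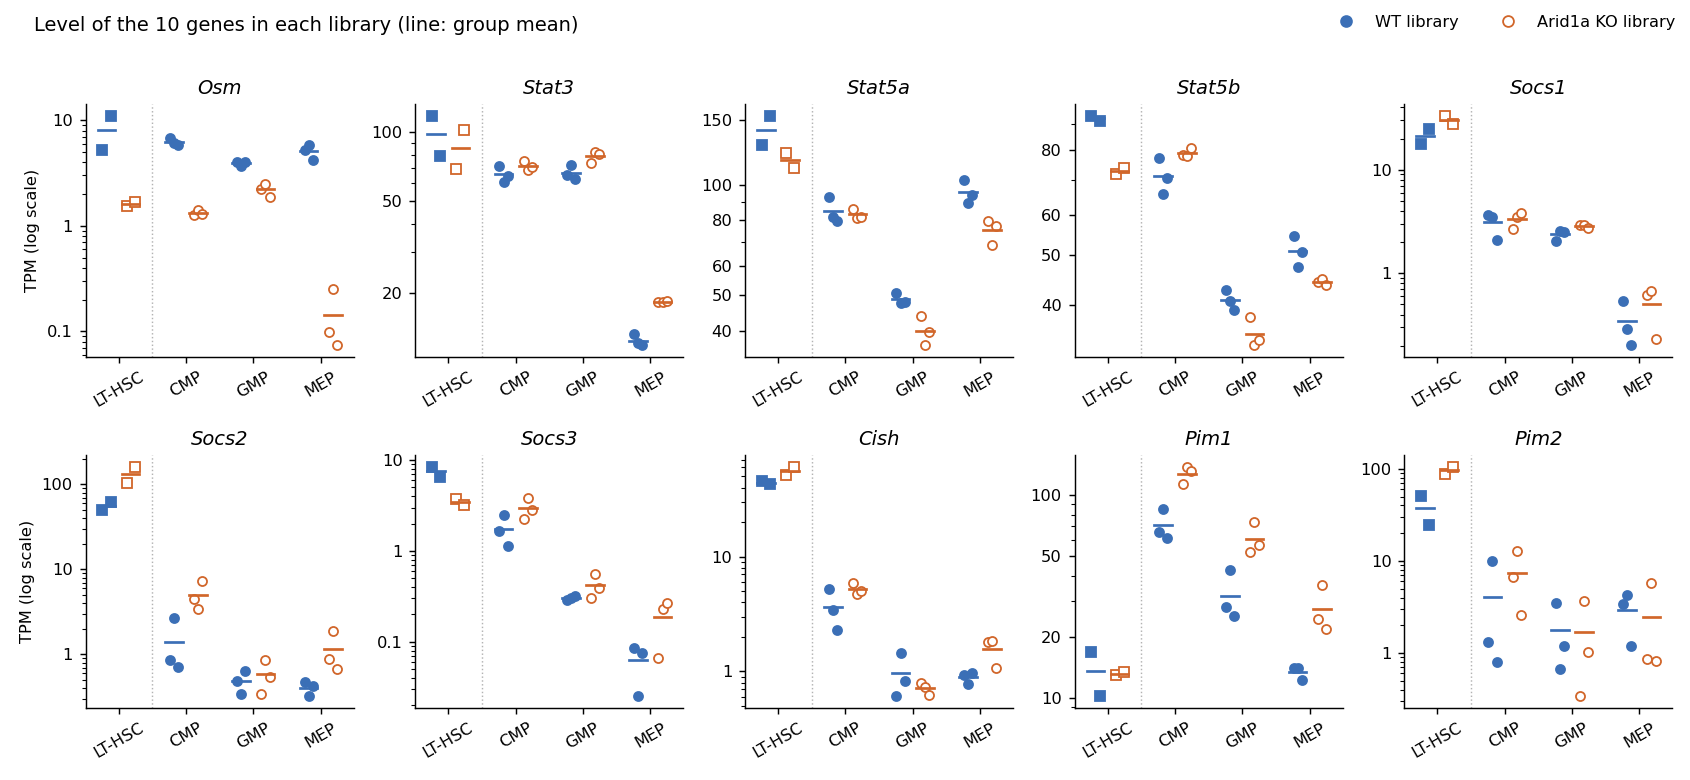
Level of each of the 10 genes in every library, in TPM on log scales that differ between panels, by population and genotype; squares are LT-HSC libraries, made with another kit, circles are CMP, GMP and MEP libraries, and lines are group means. Osm falls from 5.09 TPM in WT MEP to 0.142 TPM in KO MEP, and Pim1 is higher in each KO precursor group than in its WT group.

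Osm was expressed at a few TPM in all 4 WT populations and was lower in every KO group. In CMP the WT libraries had 6.73, 6.09 and 5.87 TPM and the KO libraries 1.28, 1.40 and 1.30 TPM. No KO library came near a WT library, and the KO mean was 21.3% of the WT mean. Its log2 fold change was -2.30 (standard error 0.13, edgeR FDR = 3.7e-05). In GMP the WT libraries had 4.07, 3.70 and 4.04 TPM and the KO libraries 2.26, 2.51 and 1.88 TPM, again without overlap, and the log2 fold change was -0.71 (standard error 0.16, edgeR FDR = 0.0107). The fall was thus larger in CMP than in GMP, and the difference itself passed the test, at 1.58 on the log2 scale (GMP effect less CMP effect, standard error 0.31, edgeR FDR = 0.0030).

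In MEP, the population in which Osm was chosen, the WT libraries had 5.18, 5.88 and 4.22 TPM and the KO libraries 0.0990, 0.253 and 0.0742 TPM. The transcripts behind these values were 417, 384 and 277 estimated counts in WT and 8, 21 and 3 in KO. The KO mean was 2.79% of the WT mean, and the log2 fold change was -5.24 (standard error 0.48). The 32 counts of the 3 KO libraries together have a 95% Poisson interval of 21.9 to 45.2, and the 1078 of the WT libraries one of 1015 to 1144, which cover counting error only. In the KO mice the order of the populations was therefore GMP, CMP, MEP in each of the 3 mice, whereas in the WT mice Osm was lowest in GMP in each of the 3. Between WT populations Osm was lower in GMP than in CMP, with a log2 fold change of -0.47 (standard error 0.13, edgeR FDR = 0.0224), and the levels in CMP and MEP overlapped.

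In LT-HSC the WT libraries had 5.25 and 11 TPM and the KO libraries 1.56 and 1.68 TPM. Both KO libraries lay below both WT libraries, and the log2 fold change was -2.12 (standard error 0.66), but the gene was not called (edgeR FDR = 0.712). Over the fits that left out 1 library the log2 fold change in LT-HSC lay between -2.61 and -1.36, and the call was made only without the WT library of mouse S245, where FDR = 0.0038. DESeq2 gave an adjusted p of 0.0607.

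**Figure D2:**
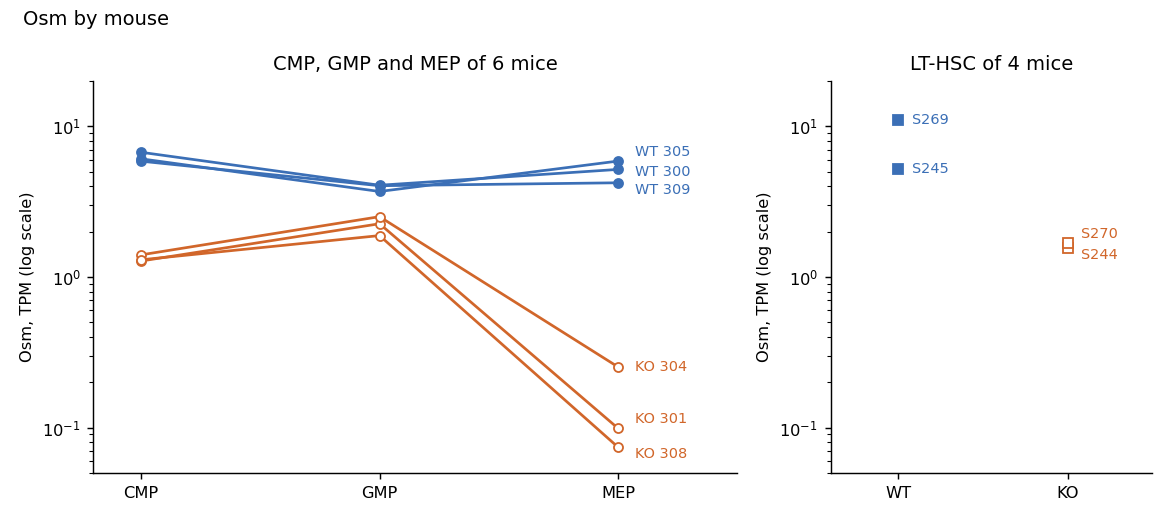
Osm in TPM, on a log scale, in CMP, GMP and MEP of the 6 precursor mice (lines join the 3 populations of 1 mouse) and in LT-HSC of the other 4 mice. The lines of the 3 KO mice lie below those of the 3 WT mice in each population, closest in GMP (1.88 to 2.51 against 3.70 to 4.07 TPM) and farthest apart in MEP.

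Markers of other cell types moved with the genotype too. Oncostatin M is known from activated monocytes, neutrophils, T cells and mast cells. The summed level of 6 basophil and mast cell markers (Mcpt8, Prss34, Cpa3, Ms4a2, Fcer1a, Hdc) lay at 120.5 to 297 TPM in WT CMP and 90.7 to 92.2 TPM in KO CMP, and at 991 to 1469 TPM in WT GMP and 312 to 378 TPM in KO GMP, and 5 of the 6 were called lower in each. In MEP the same sum was 3.79 to 7.72 TPM in WT and 1.43 to 2.90 TPM in KO, with 3 called lower. The sum of 5 monocyte and macrophage markers (Csf1r, Ccr2, Adgre1, Ly86, Irf8) was 186 to 411 TPM in WT CMP and 131 to 184 TPM in KO CMP, 143 to 251.2 TPM in WT GMP and 103 to 145 TPM in KO GMP, and 1.90 to 3.38 TPM in WT MEP and 1.87 to 3.01 TPM in KO MEP. Of the 5, 1 was called higher and 2 lower in CMP, 1 higher and 3 lower in GMP, and 2 higher in MEP. The sum of 6 late neutrophil markers (S100a8, S100a9, Ltf, Camp, Ngp, Lcn2) was 66.8 to 313 TPM in WT CMP and 37.1 to 73.5 TPM in KO CMP, with 4 called lower. It went up in GMP, from 160 to 370 TPM in WT to 410 to 1342 TPM in KO, with 3 called higher and 1 lower, and in MEP it was 29.4 to 107 TPM in WT and 11.9 to 28.7 TPM in KO, with 1 called lower. The sum of 4 T and NK cell markers (Cd3e, Cd3g, Cd8a, Nkg7) was likewise lower in KO CMP (125 to 140 against 164 to 239 TPM) and KO MEP (3.25 to 6.58 against 6.80 to 13.05 TPM) and higher in KO GMP (945 to 1106 against 643 to 859 TPM). Nearly all of it was Nkg7, and Cd3e was at most 0.0977 TPM in any precursor library. The part of these cells in the difference of Osm was not tested. In bulk RNA of sorted cells, fewer cells that express a gene and less of its RNA per cell cannot be told apart, here and for every gene described.

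The STAT factor genes were far more abundant than Osm. Stat3, the main factor below interleukin-6 type cytokines and the G-CSF receptor, had 71.4, 61.0 and 64.7 TPM in WT CMP and 64.9, 72.0 and 62.6 TPM in WT GMP, which did not differ by the test (log2 fold change 0.07, standard error 0.06, edgeR FDR = 0.425). In WT MEP it had only 13.2, 12 and 11.8 TPM, a log2 fold change of -2.22 against CMP (standard error 0.07, edgeR FDR = 5.3e-08). In KO MEP it rose to 18.3, 18.1 and 18.3 TPM, above every WT library, by 0.49 on the log2 scale (standard error 0.09, edgeR FDR = 0.0056). In KO GMP it rose to 73.7, 82.2 and 80.2 TPM, by 0.42 (standard error 0.07, edgeR FDR = 0.0024). In CMP the KO libraries had 75.4, 68.5 and 70.8 TPM, which overlapped the WT libraries, with a log2 fold change of -0.03 (standard error 0.06, edgeR FDR = 0.817). The effect in CMP differed from that in GMP by 0.46 (standard error 0.09, edgeR FDR = 0.0040) and from that in MEP by 0.52 (standard error 0.10, edgeR FDR = 0.0034). The rise of Stat3 in MEP left it at less than in any CMP or GMP library.

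Stat5a and Stat5b lie next to each other and encode closely related factors that act below the erythropoietin and interleukin-3 receptors. Stat5a had 103, 89.3 and 93.5 TPM in WT MEP, 92.5, 81.9 and 79.6 TPM in WT CMP and 50.7, 47.6 and 48.1 TPM in WT GMP. It was higher in MEP than in CMP by 0.41 on the log2 scale (standard error 0.05, edgeR FDR = 0.00011), although the TPM values of these groups overlapped, and lower in GMP than in CMP by 0.63 (log2 fold change -0.63, standard error 0.05, edgeR FDR = 2.5e-05). In KO MEP it had 79.5, 68.7 and 77.3 TPM, below every WT MEP library, with a log2 fold change of -0.35 (standard error 0.08, edgeR FDR = 0.0147). In KO CMP (log2 fold change -0.13, edgeR FDR = 0.184) and KO GMP (-0.11, edgeR FDR = 0.234) it was not called. With the mice paired in the order of the study's expression columns as a block, the FDR was 0.0912 in CMP and 0.0907 in GMP. Stat5b had 54.6, 47.4 and 50.9 TPM in WT MEP and 44.3, 45.1 and 43.7 TPM in KO MEP, a log2 fold change of -0.21 (standard error 0.06, edgeR FDR = 0.0328), and this call was lost when WT mouse 300, KO mouse 301 or KO mouse 304 was left out (FDR = 0.108, 0.138 and 0.119). In CMP its log2 fold change was 0.04 (edgeR FDR = 0.746) and in GMP -0.08 (edgeR FDR = 0.300).

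The fall of both Stat5 genes in MEP differed from their change in CMP, by -0.23 for Stat5a (standard error 0.08, edgeR FDR = 0.0737) and by -0.26 for Stat5b (standard error 0.06, edgeR FDR = 0.0179). The call for Stat5a was lost when any 1 mouse other than WT mouse 305 was left out (FDR = 0.106 to 0.305), and that for Stat5b without WT mouse 309 (FDR = 0.109). For Stat5a the difference between MEP and GMP was -0.26 (standard error 0.08, edgeR FDR = 0.0263), which was not called without WT mouse 300 (FDR = 0.107) or KO mouse 304 (FDR = 0.106). In MEP, Stat3 and the Stat5 genes thus moved in opposite directions in the same 6 libraries, each by well under 1 on the log2 scale. In WT LT-HSC the 3 STAT genes had the highest means of the 10. Stat3 had 118 and 78.6 TPM in WT and 69.5 and 102 TPM in KO, which overlapped. Stat5a had 128 and 154 TPM in WT and 122 and 111 TPM in KO. Stat5b had 93.2 and 91.1 TPM in WT and 71.8 and 73.8 TPM in KO. For both Stat5 genes the KO libraries lay below the WT libraries in TPM. None of the 3 was called, and the log2 fold changes of their counts were 0.12, -0.08 and -0.11 with standard errors of 0.34, 0.33 and 0.32. The main coding transcript of Stat5a shares 23.7% of its 31-base stretches, and that of Stat5b 16.6%, with transcripts of other genes, nearly all of them with each other, and Stat3 and Stat5a overlap at their ends on opposite strands (GRCm38, chr11:100885098-100885169). How reads over shared stretches were split rests on the estimate deposited.

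**Figure D3:**
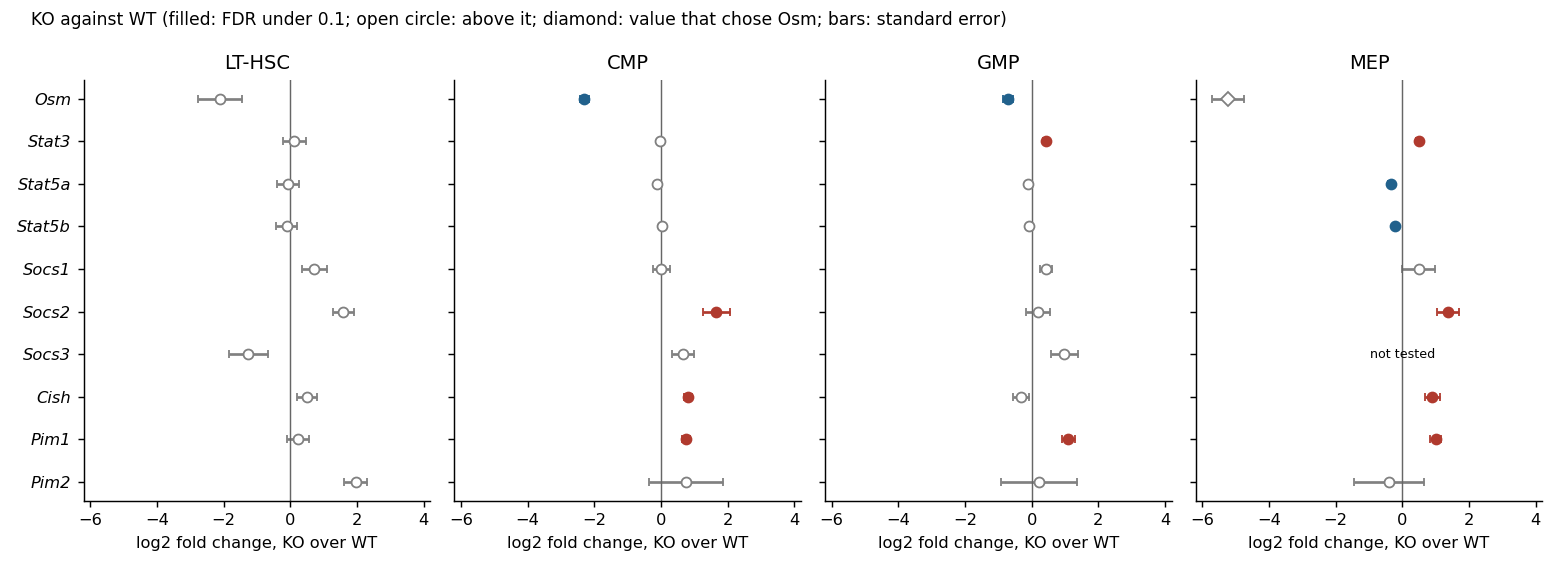
Log2 fold change of KO over WT for the 10 genes in each population; bars are standard errors, filled circles passed an FDR of 0.1, open circles did not, and the diamond is the value by which Osm was chosen. Pim1 lies to the right of 0 in CMP, GMP and MEP, Osm to the left in all 4 populations, and the bars of Pim2 span more than 1 on either side in CMP, GMP and MEP.

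Among the inhibitors, CIS and SOCS2 dampen STAT5 signals, including those of growth hormone and erythropoietin receptors, whereas SOCS1 restrains interferon signals and SOCS3 binds gp130 and the G-CSF receptor. In WT all 4 genes were most abundant in LT-HSC, where Cish had 45.5 and 42.6 TPM and Socs2 50.2 and 62.5 TPM in WT. Among the WT precursors both had their highest mean in CMP. For Socs2 the log2 fold change against CMP was -1.49 in GMP (standard error 0.41, edgeR FDR = 0.0190) and -1.41 in MEP (standard error 0.41, edgeR FDR = 0.0134). The call in GMP was lost without WT mouse 305 (-0.81, edgeR FDR = 0.116). It was also lost with the effective transcript length as an offset (-1.27, edgeR FDR = 0.109). Cish was lower in GMP by 1.40 (log2 fold change -1.40, standard error 0.24, edgeR FDR = 0.0019) and in MEP by 1.31 (-1.31, standard error 0.24, edgeR FDR = 0.0012), and GMP and MEP did not differ by the test (-0.09, edgeR FDR = 0.780).

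The known STAT5 site has the form TTCNNNGAA. It was searched in the RefSeq promoter windows (GRCm38.p6), from 250 bases before to 50 bases after each start, of the 8 members that have one, on 11 windows; the motif reads the same on both strands. It is in 8.3% of all 32851 windows, and among the members in those of Cish and Socs3. Both stretches are shown to let the STAT-responsive inhibitors be compared, 5′ to 3′ on the gene's strand, with the matches in capitals. That of Cish (chr9:107296654-107296683, plus strand) holds 2 matches, 1 and 12 bases into the transcript, and that of Socs3 (chr11:117969501-117969530, minus strand) holds 1, which begins 154 bases before the RefSeq start.
Cish: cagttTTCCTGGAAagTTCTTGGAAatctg
Socs3: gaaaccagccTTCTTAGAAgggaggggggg
The windows of Stat3, Stat5a, Stat5b, Socs1, Pim1 and Pim2 hold none. A match is a run of letters and says nothing of binding in these cells. The gene models of the annotation used here begin upstream of both stretches.

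Socs2, which was low in WT precursors, was higher in KO in CMP and MEP. In CMP the WT libraries had 0.858, 2.67 and 0.716 TPM and the KO libraries 4.50, 3.43 and 7.24 TPM, with every KO library above every WT library (log2 fold change 1.65, standard error 0.40, edgeR FDR = 0.0224). The highest WT value was that of mouse 305. In MEP the WT libraries had 0.467, 0.323 and 0.426 TPM and the KO libraries 0.874, 1.89 and 0.679 TPM, a log2 fold change of 1.37 (standard error 0.32, edgeR FDR = 0.0193). In GMP, with 0.486, 0.343 and 0.634 TPM in WT and 0.341, 0.858 and 0.546 TPM in KO, the groups overlapped (log2 fold change 0.19, standard error 0.37, edgeR FDR = 0.764). The effects in CMP and GMP differed by -1.57 (standard error 0.59, edgeR FDR = 0.0912). That call was lost without mouse 300, 301, 308 or 309 (FDR = 0.233, 0.237, 0.277 and 0.349) and with the length offset (FDR = 0.243). These levels rest on 17 to 372 estimated counts per library. Socs2 shares 23.2% of the 31-base stretches of its main transcript, mostly with the processed pseudogene Gm9847, to which at most 4 estimated counts were assigned in any library.

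Cish behaved in part like Socs2. In MEP it had 0.930, 0.770 and 0.964 TPM in WT and 1.82, 1.82 and 1.08 TPM in KO, without overlap (log2 fold change 0.90, standard error 0.23, edgeR FDR = 0.0245), and without mice 304 and 305 the log2 fold change was 0.67 (edgeR FDR = 0.111). In CMP it had 5.21, 3.42 and 2.28 TPM in WT and 5.84, 4.73 and 5.01 TPM in KO, which overlapped, but in counts it rose by 0.82 (standard error 0.13, edgeR FDR = 0.0028). This call ended once the effective transcript length was entered as an offset (0.43, edgeR FDR = 0.338). The counts of Cish are split between its coding transcript Cish-201, which took 49.3 to 69.5% of them in CMP, and the processed transcript Cish-202, which took 27.8 to 45.0%. In GMP the log2 fold change was -0.32 (standard error 0.25, edgeR FDR = 0.407), and it differed from that in CMP by -1.14 (standard error 0.30, edgeR FDR = 0.0174) and from that in MEP by 1.19 (MEP less GMP, standard error 0.31, edgeR FDR = 0.0140). With the length offset neither difference was called (-0.69, edgeR FDR = 0.361, and 1.0, edgeR FDR = 0.147).

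Some genes that mark stem cells moved beside these inhibitors. The sum of 6 LT-HSC markers (Procr, Slamf1, Mecom, Hlf, Fgd5, Hoxb5) lay at 34.8 to 47.0 TPM in WT CMP and 58.3 to 64.7 TPM in KO CMP, but its members did not move together, and 2 were called higher and 2 lower. Slamf1 went from a mean of 5.53 to 18.7 TPM and Mecom from 4.54 to 12.8 TPM, while Procr went from 4.71 to 1.79 TPM and Fgd5 from 0.912 to 0.0414 TPM. The sum lay at 1.80 to 5.34 TPM in WT MEP and 8.64 to 9.70 TPM in KO MEP, where 2 were called higher. In GMP it went the other way, from 8.48 to 9.76 TPM in WT to 5.67 to 6.54 TPM in KO, with 1 called higher and 3 lower. The sum of 5 megakaryocyte markers (Pf4, Itga2b, Vwf, Gp1bb, Gp9) was 24.5 to 45.0 TPM in WT MEP and 68.7 to 93.0 TPM in KO MEP, and it was lower in KO CMP (559 to 576 TPM) than in WT CMP (739 to 1080 TPM). Of these 5, 3 were called higher in MEP, and 1 higher and 4 lower in CMP. The part of such cells in the rises of Socs2 and Cish was not tested.

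Socs1 and Socs3 were not called in any comparison of KO with WT. Socs1 had 3.68, 3.52 and 2.11 TPM in WT CMP and 2.67, 3.52 and 3.78 TPM in KO CMP, with a log2 fold change of 0.00 (standard error 0.25). In GMP the WT libraries had 2.06, 2.54 and 2.51 TPM and the KO libraries 2.94, 2.90 and 2.77 TPM, all 3 above WT (log2 fold change 0.43, standard error 0.19, edgeR FDR = 0.131, and 0.0903 with the mouse pairs as a block). Socs3 had 1.64, 2.51 and 1.12 TPM in WT CMP and 2.27, 3.82 and 2.80 TPM in KO CMP (log2 fold change 0.66, standard error 0.34, edgeR FDR = 0.240, and 0.0970 with the block). In GMP, where Socs3 rests on 11 to 54 estimated counts per library, its log2 fold change was 0.98 (standard error 0.41, edgeR FDR = 0.116, and 0.0735 with the block). Between WT populations both were much lower in MEP than in CMP. Socs1 had 0.543, 0.288 and 0.203 TPM in WT MEP (log2 fold change -2.81, standard error 0.35, edgeR FDR = 0.00010), and Socs3 at most 0.0858 TPM (log2 fold change -4.29, standard error 0.43, edgeR FDR = 2.6e-05), on 2 to 9 estimated counts per library. Socs3 was also lower in GMP than in CMP (log2 fold change -2.62, standard error 0.36, edgeR FDR = 0.00054), whereas Socs1 did not differ by the test between these 2 (-0.18, edgeR FDR = 0.687).

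In LT-HSC, the inhibitors did not move as one. Socs2 had 50.2 and 62.5 TPM in WT and 105 and 161 TPM in KO (log2 fold change 1.59, standard error 0.32, edgeR FDR = 0.245). It was called by DESeq2 (adjusted p = 0.0019) and with the mouse pairs as a block (edgeR FDR = 0.0331). Cish had 45.5 and 42.6 TPM in WT and 51.8 and 60.5 TPM in KO (log2 fold change 0.49, standard error 0.29, edgeR FDR = 0.876), and Socs1 17.7 and 24.5 TPM in WT and 33.1 and 27.6 TPM in KO (0.72, standard error 0.38, edgeR FDR = 0.876). Socs3 went the other way, with 8.43 and 6.60 TPM in WT and 3.71 and 3.18 TPM in KO (-1.27, standard error 0.59, edgeR FDR = 0.876). None of the 4 was called in the reported edgeR fit, and with 2 libraries a group the order of the libraries alone carries little weight. The markers also differed between the LT-HSC groups. The sum of the 6 LT-HSC markers was 337 to 445 TPM in WT and 236 to 267 TPM in KO, and that of the 5 megakaryocyte markers 215 to 255 TPM in WT and 371 to 401 TPM in KO, with none of the 11 called by edgeR. The LT-HSC markers did not move together. Procr, Hlf, Fgd5 and Mecom were lower in both KO libraries, and Hoxb5 overlapped. Slamf1 was higher, at 32.7 and 29.2 TPM in KO against 14.6 and 15.8 TPM in WT. The sums of the eosinophil, basophil and mast cell (20.1 to 48.1 against 12.4 to 13.3 TPM), and T and NK cell markers (151 to 208 against 124 to 136 TPM) were higher in both KO libraries. Those of the erythroid markers and of 4 B cell markers (1.55 to 7.92 against 8.59 to 32.8 TPM) were lower. The late neutrophil, monocyte and macrophage, and granulocyte precursor sums overlapped, and edgeR called none of these markers. The part of cells with these markers in the LT-HSC values of Osm, Socs2, Pim2 and the other genes described was not tested.

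With Osm not tested in MEP, Pim1 was the one member called in the same direction in all 3 precursor populations. It encodes a serine/threonine kinase that promotes survival of blood precursors. In CMP it had 65.4, 85.5 and 61.3 TPM in WT and 113, 138 and 131 TPM in KO (log2 fold change 0.75, standard error 0.13, edgeR FDR = 0.0045). In GMP it had 27.9, 42.4 and 25.5 TPM in WT and 52.5, 73.6 and 56.4 TPM in KO (1.10, standard error 0.20, edgeR FDR = 0.0030). In MEP it had 14.1, 14 and 12.3 TPM in WT and 24.5, 35.9 and 21.8 TPM in KO (0.99, standard error 0.16, edgeR FDR = 0.0031). In each population every KO library was above every WT library, and mice 305 and 304 gave the highest WT and KO values in CMP and GMP. The effects in the 3 populations did not differ by the test, with a difference between CMP and GMP of 0.34 (standard error 0.15, edgeR FDR = 0.162), between CMP and MEP of 0.20 (standard error 0.16, edgeR FDR = 0.534) and between GMP and MEP of -0.14 (standard error 0.16, edgeR FDR = 0.593). The order of the levels, CMP above GMP above MEP, held in WT and in KO means. In WT, GMP was below CMP (log2 fold change -1.0, standard error 0.11, edgeR FDR = 0.00011) and above MEP by 1.06 (standard error 0.11, edgeR FDR = 2.6e-05). In LT-HSC Pim1 had 16.8 and 10.2 TPM in WT and 12.9 and 13.4 TPM in KO, which overlapped (log2 fold change 0.23, standard error 0.33, edgeR FDR = 0.895). Pim3, a PIM kinase gene that is not a member, was called lower in KO in all 3 precursor populations. Its log2 fold change was -0.31 in CMP (edgeR FDR = 0.0378), -0.32 in GMP (edgeR FDR = 0.0323) and -0.69 in MEP (edgeR FDR = 0.0038).

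Markers of granulocyte and erythroid precursors differed between the genotypes as well. The sum of 6 granulocyte precursor markers (Mpo, Elane, Prtn3, Ctsg, Ms4a3, Cebpe) was higher in KO GMP (41539 to 46798 TPM) than in WT GMP (31113 to 36641 TPM), was lower in KO CMP (1750 to 2713 TPM) than in WT CMP (3946 to 4800 TPM), and overlapped in MEP (28.6 to 40.2 against 26.4 to 60.5 TPM). All 6 were called higher in GMP, 3 were called lower in CMP and none was called in MEP. The sum of the 6 erythroid markers was higher in KO CMP (1243 to 1429 TPM) than in WT CMP (936 to 1019 TPM) and lower in KO MEP (3244 to 3789 TPM) than in WT MEP (4717 to 5937 TPM). In CMP 5 of the 6 were called higher. In MEP the sum follows Car1, which was 3521 to 5013 TPM in WT and 1665 to 2432 TPM in KO, whereas 3 of the 6 were called higher and 1 lower, and Epor went from a mean of 180.2 to 248 TPM, Klf1 from 353 to 465 TPM and Hba-a1 from 95.6 to 265 TPM. The part of these cells in the rise of Pim1 was not tested.

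Pim2 is the X-linked relative of Pim1, with a like substrate preference. It was abundant in LT-HSC, with 50.9 and 24.8 TPM in WT and 87.0 and 105 TPM in KO. Both KO libraries were higher (log2 fold change 1.96, standard error 0.35), but the gene was not called (edgeR FDR = 0.143). DESeq2 gave an adjusted p of 4.4e-05 and the block an edgeR FDR of 0.0248. In the precursors Pim2 was not called, and its values were spread widely. It had 1.31, 9.99 and 0.798 TPM in WT CMP and 6.64, 12.7 and 2.58 TPM in KO CMP. In GMP it had 3.47, 0.674 and 1.19 TPM in WT and 0.340, 3.68 and 1.01 TPM in KO. In MEP, where it had 3.38, 4.23 and 1.20 TPM in WT and 0.858, 5.77 and 0.823 TPM in KO, the groups overlapped as they did in CMP and GMP. The standard errors of its log2 fold changes in CMP, GMP and MEP were 1.11, 1.13 and 1.05, and without mice 304 and 305 the log2 fold changes were 2.54, -2.54 and -2.37, in the same order, and all 3 were called (edgeR FDR = 0.0585, 0.0744 and 0.0609). With the mouse pairs as a block Pim2 was called in CMP (log2 fold change 1.40, standard error 0.47, edgeR FDR = 0.0619), where the KO value was above the WT value in each of the 3 pairs.

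The spread of Pim2 came from 1 transcript. Pim2-201, the full-length coding form, had 223 to 890 estimated counts in 8 precursor libraries and 0.970 to 6.76 in the other 10, with none between. The 8 were those of WT mouse 305 in CMP and MEP, WT mouse 300 in GMP and MEP, KO mouse 301 in CMP and KO mouse 304 in all 3 populations, so the same mouse could be on either side in different populations. The other Pim2 transcripts together had 11.7 to 61.5 estimated counts in the precursors and showed no such gap. In the 4 LT-HSC libraries Pim2-201 had 1085 to 7557 estimated counts. The transcript shares 6.2% of its 31-base stretches, all of them with the processed pseudogene Gm7645 on chromosome 2, which had 25 to 159 estimated counts over the 22 libraries. What sets the 2 levels apart was not tested.

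**Figure D4:**
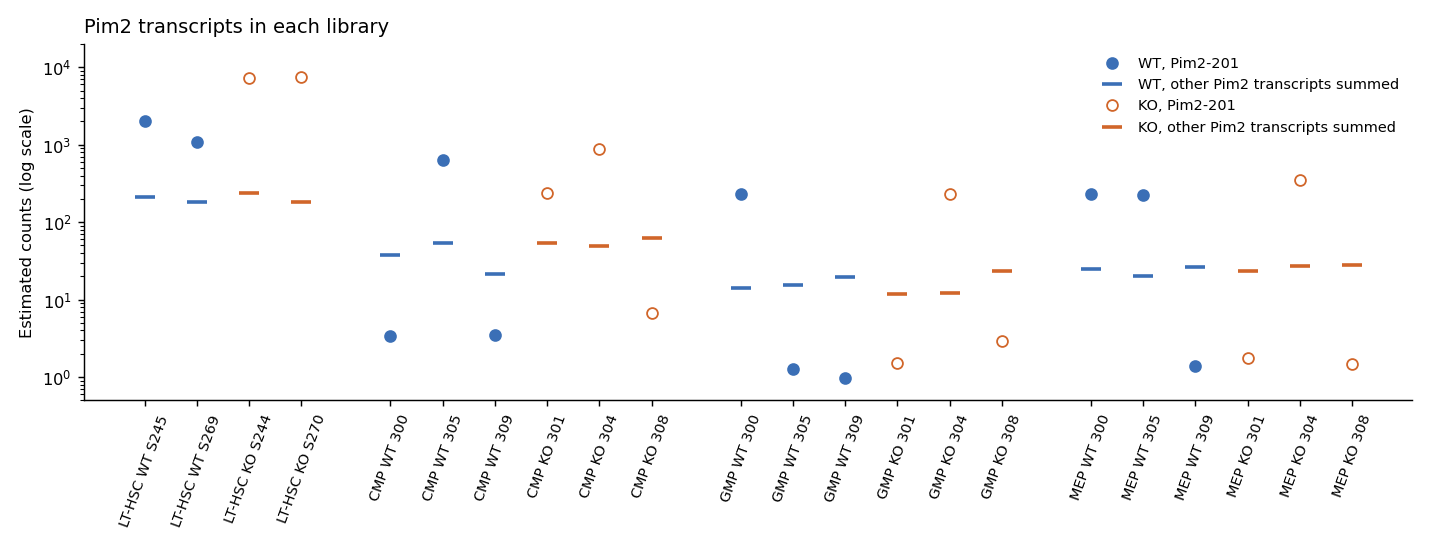
Estimated counts, on a log scale, of the transcript Pim2-201 (circles) and of the other Pim2 transcripts summed (dashes) in each of the 22 libraries, by population, genotype and mouse. In the precursors Pim2-201 lies either at 223 to 890 or at 0.970 to 6.76, while the dashes stay between 11.7 and 61.5.

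The same count was made between the WT precursor populations. In GMP against CMP none of the 10 was called higher, where 21% of all genes were, and 7 were called lower, where 24.2% of all genes were. In MEP against CMP, of the 9 genes other than Osm, Stat5a was called higher (34.4% of all genes) and 7 were called lower (38% of all genes). Between GMP and MEP, 4 of the 9 (Stat3, Socs1, Socs3 and Pim1) were called higher in GMP (36.5% of all genes) and Stat5a and Stat5b lower (36.1% of all genes). The genotype effect differed between CMP and GMP for 4 of the 10 genes (21% of all genes), between CMP and MEP for 3 of the 9 other than Osm (13% of all genes) and between GMP and MEP for 2 of the 9 (26.8% of all genes). These 3 differences share libraries, as do the 3 comparisons between WT populations.

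The wider pathway was covered by 75 further genes of JAK-STAT signalling. In CMP, of 73 tested, 15 were called higher and 13 lower in KO, where 10.6% and 12.8% of all genes were, with a median log2 fold change of 0.03. In GMP, 24 of 70 were called higher and 16 lower (median 0.09), where 17.5% and 16.3% of all genes were, and in MEP 12 of 68 were called higher and 13 lower, where 14% and 15.4% of all genes were (median -0.02, beside -0.0020 over all genes). In LT-HSC 1 of 75 was called, Csf3r, the G-CSF receptor, which fell from 74.8 ± 18.5 to 14.4 ± 2.82 TPM (SD, n = 2; log2 fold change -2.09, standard error 0.29, edgeR FDR = 0.0425). Without the KO library of mouse S270 its FDR was 0.667, with limma it was 0.380, and in GMP Csf3r was called higher in KO (0.81, edgeR FDR = 0.00076). The 4 JAK kinases gave no call in CMP, 1 higher in GMP, and 1 higher and 1 lower in MEP.

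Receptors took both directions. Of 22 tested in CMP, 7 were called higher and 7 lower, beside the same 10.6% and 12.8% of all genes. Il7r, a lymphoid receptor chain, rose from 0.827 ± 0.246 to 7.79 ± 4.07 TPM (SD, n = 3; log2 fold change 3.14, edgeR FDR = 0.00094), and Csf2rb2, which encodes a mouse interleukin-3 receptor chain, from 4.07 ± 0.251 to 12.7 ± 2.39 TPM (1.54, edgeR FDR = 0.00021). Among those that fell were Ghr, the growth hormone receptor (-2.07, edgeR FDR = 0.0138), Il6ra, the interleukin-6 receptor, from 22.3 ± 3.71 to 9.99 ± 1.07 TPM (SD, n = 3; -1.25, edgeR FDR = 0.00056), and Il11ra1, from 54.8 ± 1.29 to 30.1 ± 7.21 TPM (-1.04, edgeR FDR = 0.00012). Sh2b2, an adaptor, also fell in CMP (-1.36, edgeR FDR = 0.0025). In GMP, 5 of 22 receptors were called higher (17.5% of all genes), Csf2rb2 again (1.26, edgeR FDR = 2.1e-05), and 8 lower (16.3% of all genes). Among the latter were Ghr, which stayed under a mean of 1 TPM (-2.83, edgeR FDR = 0.0010), Il5ra, the interleukin-5 receptor chain (-2.15, edgeR FDR = 0.00034), and Il10ra (-1.53, edgeR FDR = 0.0021), which in CMP was called higher (0.61, edgeR FDR = 0.0474). Il5ra is also 1 of the 4 eosinophil markers, whose sum was 3895 to 8897 TPM in WT GMP and 1085 to 2167 TPM in KO GMP. In MEP, 4 of 21 were called higher (14% of all genes) and 4 lower (15.4% of all genes). Il6st, the gp130 chain through which oncostatin M signals, rose from 0.602 ± 0.158 to 1.30 ± 0.0865 TPM (SD, n = 3; 1.40, edgeR FDR = 0.0029), and Il3ra fell from 3.92 ± 0.637 to 1.79 ± 0.180 TPM (-1.16, edgeR FDR = 0.0035).

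Other cytokines of the interleukin-6 family were scarce. Il6 fell in GMP from 1.99 ± 0.525 to 0.288 ± 0.0696 TPM (SD, n = 3; log2 fold change -2.71, edgeR FDR = 0.00060). Of the known STAT targets 5 of 13 rose and 1 fell in CMP (10.6% and 12.8% of all genes), 7 of 12 rose and 2 fell in GMP (17.5% and 16.3%), and 3 of 11 rose and 3 fell in MEP (14% and 15.4%). Id1, a regulator that holds back differentiation, rose in CMP from 1.92 ± 0.335 to 7.0 ± 2.25 TPM (1.77, edgeR FDR = 0.0029) and in GMP from 8.64 ± 0.727 to 46.9 ± 1.66 TPM (SD, n = 3; 2.60, edgeR FDR = 2.7e-06). Cdkn1a, a cell cycle inhibitor that p53 also controls, rose in CMP (1.32, edgeR FDR = 0.00070) and GMP (0.82, edgeR FDR = 0.0021). In MEP it rose from 1.22 ± 0.318 to 10.7 ± 0.936 TPM (3.13, edgeR FDR = 2.5e-05). The survival gene Bcl2l1 rose in MEP from 6.52 ± 1.20 to 16.4 ± 2.19 TPM (1.33, edgeR FDR = 0.00064), as did Ccnd3, cyclin D3, from 93.1 ± 17.6 to 158 ± 25.7 TPM (SD, n = 3, 0.77, edgeR FDR = 0.0081). Bcl2l1 was also called higher in CMP (0.30, edgeR FDR = 0.0658) and GMP (0.87, edgeR FDR = 0.00011). Ccnd3 was too, in CMP (0.29, edgeR FDR = 0.0552) and GMP (0.59, edgeR FDR = 0.00016). In GMP the repressor gene Bcl6 (1.08, edgeR FDR = 0.00013) and the adaptor gene Irs2 (1.55, edgeR FDR = 8.9e-05) rose. Ccnd1, cyclin D1, fell in GMP (-1.46, edgeR FDR = 0.0444, but 0.151 without WT mouse 309) and MEP (-1.47, edgeR FDR = 0.0141), Sh2b2 in MEP (-1.38, edgeR FDR = 0.0022), and Junb in MEP from 13 ± 1.46 to 5.92 ± 0.764 TPM (-1.16, edgeR FDR = 0.00085), though Junb was called higher in GMP (0.51, edgeR FDR = 0.0018).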

How the data were processed

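RNA was measured in 22 libraries of paired-end reads of 100 bases. With kallisto 0.43.1 and the Ensembl 84 transcripts, the authors made the deposited tables, which give every transcript an estimated count, its effective length and a TPM value; their notes also name DESeq2, and the genome build mm10. Of 115088 transcripts, 114200 (99.2%) were paired with genes of GENCODE release M21 (GRCm38), which also gave the coordinates. Estimated counts and TPM were summed per gene, and counts were rounded. Each comparison was fitted over all genes with edgeR 4.0.16 in R 4.3.3 (TMM, filterByExpr with a count minimum of 10, quasi-likelihood test), with genotype as the only term, and was tested on simulated counts. Differences between populations were fitted with the mouse as a block. A standard error is the size of the log2 fold change over the root of its F statistic. Tried as alternatives were no filter, median-of-ratios size factors, an offset for transcript length, DESeq2 1.42.0 and limma 3.58.1 on log2(TPM + 1). Others were all 18 precursor libraries in 1 fit, a replicate block, and each mouse left out with all its libraries in that fit. Leaving out mice 304 and 305 was added after seeing the data.

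The members and the lists of genes were chosen with earlier results of these data known. A few genes are not reported here and were left out of every list, whatever their values. Per comparison of KO with WT, up to 4 called pathway genes with the largest rise and 4 with the largest fall were named. Each had a mean of at least 1 TPM in the higher group, and a gene named in 1 comparison could be called in others too. Also named beside the members are Arid1a, the marker lists, and the 3 genes most like each member (2 for Stat5b). Ddx3y, Xist, Pim3 and the pseudogenes were named after their values were seen. Pairs of WT and KO mice follow the order of columns in the study's supplement, which does not call them pairs. Deviations of the paired mice from their group means correlated, across genes, with r of 0.33, 0.52 and 0.36 in CMP, 0.47, 0.43 and 0.56 in GMP, 0.01, 0.50 and 0.36 in MEP, and 0.29 in LT-HSC. For mice not in a pair r was -0.41 to 0.17 in CMP, -0.35 to -0.14 in GMP and -0.47 to 0.32 in MEP. In MEP WT mouse 300 was thus closer to KO mouse 308 (0.32) than to its pair, KO mouse 301. With 2 mice a group the deviations are equal and opposite, so in LT-HSC the other pairing gives -0.29 by construction. Stretches of 31 bases were compared with all transcripts on both strands. No RefSeq promoter entry was matched for Osm and Socs2.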

Additional observations from a re-analysis of the deposited data

Results flagged for a closer look

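Results below stand out because the genotype effect differed between populations in the interaction of genotype and population, fitted over the 18 precursor libraries. Each value takes the log2 effect of KO in the first population named away from that in the second. For Osm the difference between CMP and GMP was 1.58, with a fall of 2.30 in CMP and of 0.71 in GMP (log2 fold changes -2.30 and -0.71). For Stat3 it was 0.46 between CMP and GMP and 0.52 between CMP and MEP, with rises in GMP and MEP and no call in CMP. For Socs2 it was -1.57 between CMP and GMP, with a call in CMP and none in GMP. For Cish it was -1.14 between CMP and GMP and 1.19 between GMP and MEP, with a negative estimate in GMP and positive ones in CMP and MEP. For Stat5a it was -0.26 between GMP and MEP and -0.23 between CMP and MEP, and for Stat5b -0.26 in the latter, with falls called in MEP. No cause was tested for any of them. Groups of 2 or 3 libraries are too small for a test of single outlying libraries.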

How the results depend on the processing

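The count of the 10 genes called changed by more than 1.5 times under these settings. In LT-HSC, where none was called, DESeq2 called 3 (Osm, Socs2 and Pim2), and both the fit without the filter on low counts and the replicate block called 2 (Socs2 and Pim2). Over all genes these 3 settings called 204 of 22733, 286 of 38181 and 115 of 22733, in that order. The reported fit called 18 of 22733. With the replicate block 7 were called in CMP in place of 4 (also Stat5a, Socs3 and Pim2) and 6 in GMP in place of 3 (also Stat5a, Socs1 and Socs3), while the count in MEP stayed at 6. The block raised the count over all genes too. It went from 4030 to 5384 of 17214 in CMP, from 5550 to 7152 of 16383 in GMP and from 4638 to 5261 of 15777 in MEP. With limma on log2(TPM + 1) 5 were called in GMP (also Stat5a and Stat5b). Over all 16383 genes limma called 1307 higher and 3672 lower there, with a median log2 fold change of -0.10. The reported fit called 2874 higher and 2676 lower, with a median of -0.0056. With the length offset the effect differed between CMP and GMP for 2 genes in place of 4 and between GMP and MEP for 1 in place of 2. Over all 18523 genes the offset gave 3249 in place of 3887 and 4188 in place of 4957. The cause was not tested. Leaving out 1 library gave 0 to 3 calls in LT-HSC, 1 to 4 for the difference between CMP and MEP and 1 to 2 for that between GMP and MEP. The counts for the other comparisons stayed within 1.5 times under every setting run.

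Among the results given, signs changed only for estimates that were not called in the reported fit. With limma Stat3 was at -0.19 in LT-HSC and 0.12 in CMP and Pim2 at -0.12 in GMP, and with the length offset Stat3 was at 0.021 in CMP. Without mice 304 and 305 Stat5b was at -0.0059 in CMP, Socs2 at -0.32 in GMP and Pim2 at -2.54 in GMP. Leaving out 1 library gave -0.19 to 0.42 for Stat3 and -0.23 to 0.086 for Stat5a in LT-HSC. In CMP it gave -0.071 to 0.019 for Stat3, -0.011 to 0.082 for Stat5b, -0.20 to 0.15 for Socs1 and -0.27 to 3.56 for Pim2. It gave -0.15 to 0.39 for Socs2 and -2.05 to 2.35 for Pim2 in GMP, and -2.85 to 0.10 for Pim2 in MEP. Leaving out 1 WT mouse, with all its libraries, gave -0.49 to 0.043 for Socs1 in WT GMP against WT CMP. For Cish in WT GMP against WT MEP it gave -0.28 to 0.34. LT-HSC had 2 libraries a group, and Socs1 and Socs3 in MEP rested on at most 28 estimated counts per library.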

Other observations

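The genes whose levels were most like those of each member were read as a description, by Pearson's r of log2(TPM + 1) over the 18 precursor libraries, among 15637 genes with a mean of at least 1 TPM in at least 1 of the 6 groups. These libraries share 6 mice and 3 populations, so much of each r is the difference between populations. Up to 3 are named per member. For Osm they were Oxct1, an enzyme of ketone body use (r = 0.95), the long non-coding RNA 2310040G24Rik (0.93) and Map3k6 (0.90). For Stat3 they were Gm8995, Skap2 and Slc2a1 (0.99 each). For Pim1 they were Fkbp15 (0.97), the interferon-inducible Irgm2 (0.97) and Clnk (0.96), for Socs1 Tmem189, Tram2 and Zfp429 (0.97 to 0.98), and for Socs3 Cxcr1 (0.98), Ankrd33b (0.98) and Ifi27l2a (0.97). For Stat5a they were Ppif, Sbk1 and Tspan13 (0.98 each), and for Stat5b Il17ra and Txnip (0.98 each). For Socs2 they were Gfra4 (0.95), 4933406J09Rik (0.92) and Gbp6 (0.92), and for Cish Gm2830, Fam208b and Akap17b (0.96 each). The highest r was lowest for Pim2, at 0.81 with Hoxb2, followed by Gm24407 (0.79) and Coa4 (0.77).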
